A study of Mus musculus with 4 samples.

Results

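XY gonads that lack the miR-17-92 cluster were compared between E11.75 and E11.5, separately in 5 gonadal cell types. Cells were chosen by sample and by the authors' annotation, which gave 7618 of the 52745 cells of the series, 2875 at E11.75 and 4743 at E11.5. The 5 types are germ cells, supporting-like cells, interstitial progenitors, the coelomic epithelium and pre-supporting cells, the last annotated as bipotential progenitors. All UMIs (unique molecular identifiers, each 1 captured mRNA molecule) of a sample and type were summed.

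The series holds 4 droplet-based single-cell RNA-seq samples of mouse gonad with mesonephros: XY KO at E11.75, XY KO at E11.5, an XY control at E11.5 and an XX control at E11.5. Both KO groups were XY embryos homozygous for a CRISPR deletion of the cluster, grown by tetraploid aggregation from edited embryonic stem cells, of a strain labelled C57BL/6 x 129S4/SvJae, whereas the study's methods give the edited stem cells a C57BL/6J-129 F1 hybrid background. Each sample pooled several pairs of gonads, so that there was 1 sample a side and no replicate. The deletion was carried by every cell and both stages shared it, and E11.75 had no control of its own. Stage, litter, dissection and library therefore cannot be told apart, no p-value is given, and every interval is a 95% interval that covers counting error only. A KO line derived from edited stem cells also differs from bred mutants in that all embryos of a line descend from the same cells.

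MicroRNAs of the miR-17-92 cluster pair through their seed, bases 2 to 8, with sites in the 3′ UTRs of mRNAs, which are then translated less and degraded faster. At the stages sampled, Sry acts in pre-supporting cells of XY gonads and switches on Sox9, which drives them to become Sertoli cells together with Fgf9. Where Sox9 does not prevail, the ovarian genes Wnt4, Rspo1, Foxl2 and Fst take pre-supporting cells to the granulosa fate.

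The 6 main mature miRNAs of the deleted cluster are printed to show that they fall into 4 seed families. Their sequences are those of RefSeq, on the plus strand of chromosome 14 in GRCm38.p6, 5′ to 3′, with the seed in capitals. In chromosome order miR-17-5p lies at chr14:115043684-115043706, miR-18a-5p at chr14:115043867-115043889, miR-19a-3p at chr14:115044048-115044070, miR-20a-5p at chr14:115044183-115044205, miR-19b-3p at chr14:115044358-115044380 and miR-92a-3p at chr14:115044476-115044496, all within the transcript of the host gene Mir17hg.
mmu-miR-17-5p: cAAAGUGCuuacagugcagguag
mmu-miR-20a-5p: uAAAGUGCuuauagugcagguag
mmu-miR-18a-5p: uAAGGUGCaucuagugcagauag
mmu-miR-19a-3p: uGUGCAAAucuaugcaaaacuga
mmu-miR-19b-3p: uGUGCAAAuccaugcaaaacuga
mmu-miR-92a-3p: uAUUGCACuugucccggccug
The first pair shares a seed, and so do both miR-19 members, while miR-18a and miR-92a each have their own. Other loci of the genome encode miR-19b-3p, miR-92a-3p and further miRNAs with these seeds, so the deletion does not remove every copy.

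The targeted locus was read first. Mir17hg, the host RNA, was at 99 to 206 CPM (UMIs of the gene scaled to a common total for each sample and type) in the 5 types at E11.75 and at 82.1 to 166 CPM at E11.5. Its ratio between stages, centred as described next, lay between −0.28 and 0.22. In the XY control it was at 9.39 CPM in pre-supporting cells and at 24.2 CPM in coelomic epithelium. A count of the host RNA does not check the deletion, because the method reads the 3′ ends of transcripts and such reads can lie outside the deleted part.

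The E11.75 sample had 8492 cells and 37841392 UMIs, and the E11.5 sample 17057 cells and 90233642 UMIs from 2 runs of 7832 and 9225 cells. The study's text lists these cell totals with the KO stages exchanged. Stages here follow the sample labels, whose cell name endings and the deposited annotation give the same assignment. By these labels the annotated Sertoli cells, which are not among the 5 types, numbered 168 at E11.75 and 24 at E11.5. The study's text places Sertoli cells at the KO stages in that same order. Its methods also give repeat runs to every genotype but the E11.75 KO, and the cells labelled E11.75 come from 1 run. Median UMIs per cell were lower at E11.75 in each of the 5 types, for example 4661 against 5349 in pre-supporting cells and 9279.5 against 12156 in germ cells. Cell barcodes shared between libraries numbered 26 for E11.75 and run 1, 15 for E11.75 and run 2, and 19 for the runs. The 5 types carried their own markers in both samples, but not all lists separate them. The pre-supporting list summed to 3010 and 2131 CPM in pre-supporting cells and to 2955 and 2540 CPM in supporting-like cells. The interstitial list summed to 2690 and 2003 CPM in interstitial progenitors and to 2144 and 1327 CPM in mesonephros, a non-gonadal type. The coelomic list summed to 1412 and 1066 CPM in coelomic epithelium and to 1027 and 811 CPM in the epithelium of the mesonephros, also non-gonadal. Germ cell markers summed to 5259 CPM at E11.75 and 5660 at E11.5 in germ cells, and to at most 57.6 CPM in the other 4 types. Pax8, which marks supporting-like cells, was at 163 and 88.9 CPM there and at most at 14.8 CPM in the other 4 gonadal types. In mesonephric tubules it was at 94.0 and 79.9 CPM, so that Pax8 alone does not set supporting-like cells apart from tubules. Msln, a coelomic marker of later stages, had 0 or 1 UMI in coelomic epithelium.

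For each gene with at least 100 UMIs over both samples in a type, the log2 ratio of CPM, E11.75 over E11.5, was centred on the median gene of the type. That median was above 0 before centring in all 5 types, at 0.17 to 0.29. The 2 runs of the E11.5 sample gave the scale of technical spread. The SD of the centred ratio between these runs was 0.19 to 0.25, against 0.38 to 0.53 between stages over the same genes, and 0.014% to 0.096% of genes lay past 2-fold between runs.

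Much of the difference between stages was common to the whole library. Genes with long 3′ UTRs were higher at E11.75 and genes with short ones lower, in all 10 annotated types with at least 50 cells in both samples, gonadal or not. The median centred log2 ratio was −0.48 to −0.23 in the shortest of 4 equal bins of genes by 3′ UTR length and 0.16 to 0.45 in the longest. Across genes, which are not independent, Spearman's rho with 3′ UTR length was 0.31 to 0.50, with transcript length 0.53 to 0.67, with GC content −0.17 to −0.039 and with mean level −0.27 to −0.16. Signs of RNA quality moved with it. In the 5 types Gm42418, a transcript that overlaps ribosomal RNA, took 0.70% to 1.27% of UMIs at E11.75 and 0.244% to 0.465% at E11.5. Mitochondrial genes took 5.56% to 6.58% against 4.35% to 5.14%, and ribosomal protein genes 14.3% to 22.4% against 21.3% to 26.8%. Lars2 was at 558 to 682 CPM against 180 to 245 CPM. The part of these in any single ratio was not tested.

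**Figure D1:**
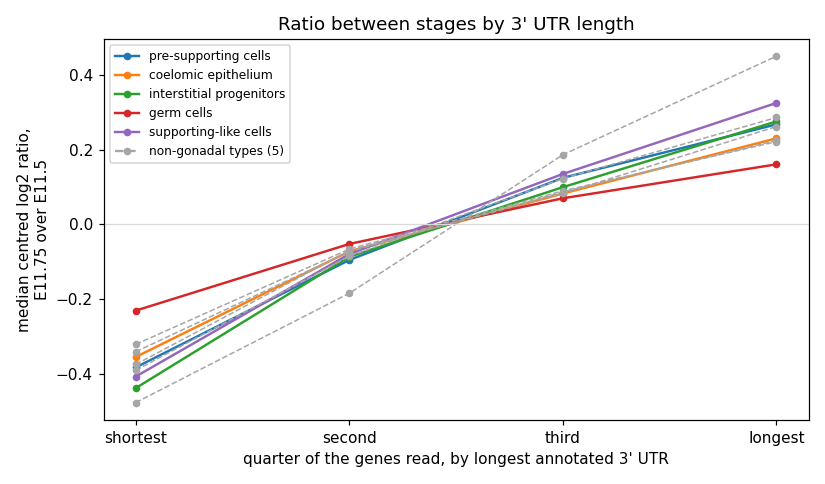
Median centred log2 ratio of E11.75 over E11.5 (y axis) for genes read in each type, split into 4 equal bins by longest annotated 3′ UTR (x axis), with 1 line per cell type. All 10 lines climb from −0.48 to −0.23 in the shortest bin to 0.16 to 0.45 in the longest, in gonadal types (coloured) and in non-gonadal types (grey, dashed).

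To set this common trend aside, the median centred ratio of each gene over up to 7 non-gonadal types of the same samples (mesonephros, its epithelium and tubules, endothelial, adrenosympathetic, adrenal and immune cells) was subtracted. The rest is called the excess here. A gene counted as changed when both its centred ratio and its excess were at least 2-fold in the same direction. Spearman's rho of the excess with 3′ UTR length was −0.25 in germ cells and −0.032 to 0.097 in the others. With transcript length it was −0.28 in germ cells. There the subtraction left a length trend of the opposite sign, which the excess values of germ cells carry. Genes of the mesonephros that changed there on their own account also enter the excess, so it is a difference from those types and not a value of the gonad alone.

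In pre-supporting cells (924 cells at E11.75 and 1084 at E11.5), 170 of 9189 genes (1.85%) were past 2-fold higher at E11.75 by the centred ratio and 243 (2.64%) past 2-fold lower. Of the 9035 genes with an excess, 46 (0.509%) were higher and 36 (0.398%) lower by both measures. In coelomic epithelium (908 and 1804 cells), 89 of 9859 genes (0.903%) were higher and 151 (1.53%) lower by the centred ratio, and 10 (0.102%) and 18 (0.184%) of 9783 by both. In interstitial progenitors (717 and 1191 cells), 145 of 8533 (1.7%) were higher and 285 (3.34%) lower, and 25 (0.294%) and 10 (0.118%) of 8493 by both. Germ cells (152 and 165 cells) had 27 of 5081 genes (0.531%) higher and 33 (0.649%) lower, and 5 (0.1%) and 4 (0.08%) of 5001 by both. Supporting-like cells (174 and 499 cells) had 140 of 5103 (2.74%) higher and 180 (3.53%) lower, and 32 (0.628%) and 29 (0.569%) of 5098 by both. Of all genes higher by the centred ratio, those without an excess included, 27.1% passed both in pre-supporting cells, and 11.2% to 22.9% in the other types. For lower genes the share was 14.8% in pre-supporting cells and 3.51% to 16.1% in the others. Genes that did not pass both were not all shared. In pre-supporting cells 23 of the 170 higher and 33 of the 243 lower genes were past 2-fold in the median non-gonadal type too. Of the 46 higher and 36 lower genes of pre-supporting cells, 37 and 32 also lay outside the whole range of the non-gonadal types. Genes counted in fewer than 3 non-gonadal types have no excess; 22 such genes were higher and 20 lower past 2-fold among 154 in pre-supporting cells.

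**Figure D2:**
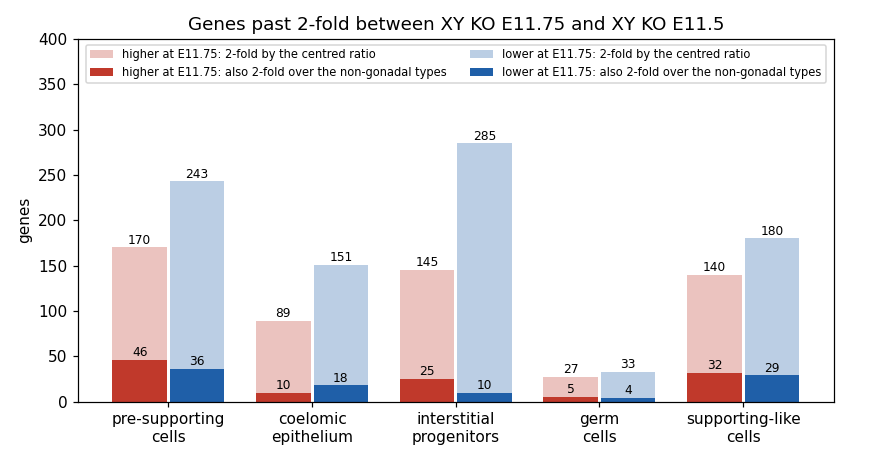
Number of genes (y axis, from 0) past 2-fold between XY KO E11.75 and XY KO E11.5 in each of 5 gonadal cell types (x axis), higher in red and lower in blue. Pale bars count the centred ratio alone (170 higher and 243 lower in pre-supporting cells) and solid bars the genes also past 2-fold over the non-gonadal types (46 and 36).

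Overlap of the calls between types was counted by both measures. The excess takes off what the non-gonadal types share, so genes that moved alike in all types drop out beforehand. Across genes, the centred ratio alone followed the non-gonadal median in each type, with Spearman's rho of 0.72 to 0.81. By both measures, 82 genes were higher in 1 type, 13 in 2, 2 in 3 and 1 in 4, and none of those counted was higher in all 5. The gene higher in 4 types was Egr1, an immediate early transcription factor, and those in 3 were Fosb, of the same class, and Agtr2, an angiotensin receptor. Among lower genes 76 were so in 1 type, 9 in 2 and 1 in 3, the last being Ptn, which encodes the growth factor pleiotrophin. Ptn and part of the others depended on sparse reference types. Against the 5 non-gonadal types with at least 50 cells in both samples, an alternative added after the data were seen, Ptn passed in none of its 3 types, with excesses of −0.92, −0.58 and −0.68 in pre-supporting cells, coelomic epithelium and germ cells. It was lower in mesonephros too, at 1115 and 1448 CPM (centred ratio −0.63). Egr1 then missed the limit in coelomic epithelium (excess 0.76) and Fosb in interstitial progenitors (0.82). These counts rest on 2-fold limits and on types of unequal depth, and whether types differed was not tested.

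Pre-supporting cells held the most genes past both limits at the minimum of 100 UMIs, though their share was higher in supporting-like cells. In pre-supporting cells genes of both the testis and the ovarian side were higher at E11.75. Sry had 66 UMIs at E11.75 and 31 at E11.5, or 14.4 CPM (exact Poisson interval 11.1 to 18.3) against 5.14 CPM (3.49 to 7.30). Its centred log2 ratio was 1.18 (0.56 to 1.86), and with so few UMIs elsewhere it has no excess. Sox9 was at 88.0 CPM at E11.75 and at 15.3 and 24.4 CPM in the runs of E11.5, a centred log2 ratio of 1.84 (1.55 to 2.15) and an excess of 1.64. Both were above each run of E11.5, which are technical repeats of 1 sample, and Sry rests on 14 and 17 UMIs in the runs. Fgf9, the secreted factor that sustains Sox9, had 12 and 16 UMIs, and its ratio of −0.30 (−1.52 to 0.86) did not show a difference at this depth. Amh, the first hormone of the Sertoli cell, had 8 and 14 UMIs and a ratio of −0.67 (−2.16 to 0.65). Cells annotated as Sertoli cells, 168 at E11.75 and 24 at E11.5, are left out of pre-supporting cells. In those Sertoli cells a list of Sertoli markers that includes Sox9 and Amh summed to 1569 and 912 CPM. The values of Fgf9 and Amh here hold for pre-supporting cells only. Gadd45g, which acts upstream of Sry, was at 629 and 877 CPM, lower with a ratio of −0.77 (−0.83 to −0.70), or −0.44 as an excess, within the 2-fold limit.

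On the ovarian side, Foxl2, a transcription factor of granulosa cells, was at 45.1 CPM at E11.75 and at 12.9 and 13.9 CPM in the runs of E11.5. Its centred log2 ratio was 1.45 (1.08 to 1.85), and it was too rare in non-gonadal types for an excess. Fst, which encodes the activin inhibitor follistatin, was at 402 CPM against 103 and 118 CPM in the runs, a ratio of 1.57 (1.44 to 1.70) and an excess of 1.21. Irx3, a homeobox gene of the granulosa lineage, was at 132 CPM against 20.5 and 17.7 CPM. Its ratio of 2.50 (2.21 to 2.80) stood against −0.53 in the non-gonadal types, where it ranged from −1.48 to 0.90, so that its excess of 3.03 was the largest of all genes read in these cells. Bmp2 was higher by a ratio of 1.08 (0.89 to 1.26), but its median over the non-gonadal types was 1.42 and its excess −0.34. The ligand genes Wnt4 and Rspo1 stayed within the 2-fold limit. Wnt4 was at 753 CPM at E11.75 and at 695 and 727 CPM in the runs, and its ratio of −0.21 (−0.27 to −0.14) is negative by the centring, which takes off 0.29. Rspo1 was at 195 and 237 CPM with −0.57 (−0.69 to −0.45). Runx1, which marks the supporting lineage early, was at 226 and 150 CPM with a ratio of 0.30 (0.17 to 0.43) and an excess of 0.30.

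As lists, 3 of 16 testis genes read (Sox9, Etv5 and Aard) were past 2-fold higher by the centred ratio and none lower, and the same 3 passed by both measures out of 12 with an excess. For the ovarian list 6 of 19 were higher (Irx3, Fst, Foxl2, Lgr5, Kitl and Bmp2) and none lower, and 2 of 18 (Irx3 and Fst) passed by both. The share over all genes read was 1.85% higher by the centred ratio and 0.509% by both. The median excess was −0.14 for the testis list and −0.050 for the ovarian list, beside −0.070 over all genes. The excess ranged from −0.91 to 1.64 in the testis list and from −1.27 to 3.03 in the ovarian list. Kitl, the ligand of the germ cell receptor Kit, was at 1000 and 354 CPM, but 0.99 of its ratio of 1.21 was shared with the non-gonadal types. Etv5 and Etv1, which respond to FGF signalling, were at 63.0 and 9.79 CPM and at 25.1 and 5.97 CPM, with centred ratios of 2.39 (1.99 to 2.83) and 1.77 (1.23 to 2.36) and excesses of 1.44 and 0.88. Of the 11 FGF and MAPK genes read, 3 were past 2-fold higher by the centred ratio (Etv5, Etv1 and Flrt2) and 1 by both.

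At single-cell level Sox9 and Foxl2 were each found in more pre-supporting cells at E11.75. After each cell was thinned to 3000 UMIs, Sox9 was detected in 13.8% of 831 cells at E11.75 and in 4.95% of 1030 cells at E11.5, with 93 and 54 shallower cells left out. Foxl2 was detected in 10.95% and 3.30%. Both genes together were detected in 13 cells at E11.75, or 1.56% (exact Clopper-Pearson interval 0.836% to 2.66%), and in 3 cells at E11.5, or 0.291% (0.0601% to 0.849%). The single shares rose as well, and whether the genes met in the same cells more often than these shares alone would give was not tested. Without thinning the shares with both were 3.90% (36 of 924) and 0.646% (7 of 1084). Endothelial cells, which should lack both, gave 0 of 143 cells at E11.75, which allows a share of up to 2.10%, and 0 of 276 at E11.5, which allows up to 1.09%. Their single-gene shares were 4.90% and 1.45% for Sox9 and 0.699% and 0.362% for Foxl2, at median depths of 5879 and 9375.5 UMIs against 4849 and 5420 in the pre-supporting cells kept. The share with both genes in pre-supporting cells at E11.75 is below what 0 of 143 endothelial cells allows, and so it cannot be set above the background of free RNA from these counts alone. The Sertoli marker list summed to 156 CPM at E11.75 and 72.3 CPM at E11.5 within pre-supporting cells, with 7 of its 8 genes detected in each. Sox9 is one of its genes, at 88.0 CPM at E11.75 and at 15.3 and 24.4 CPM in the runs of E11.5. The sum therefore largely repeats the Sox9 value and does not show a rise of Sertoli markers in general. In summed samples, more cells of a type and more RNA per cell cannot be told apart.

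**Figure D3:**
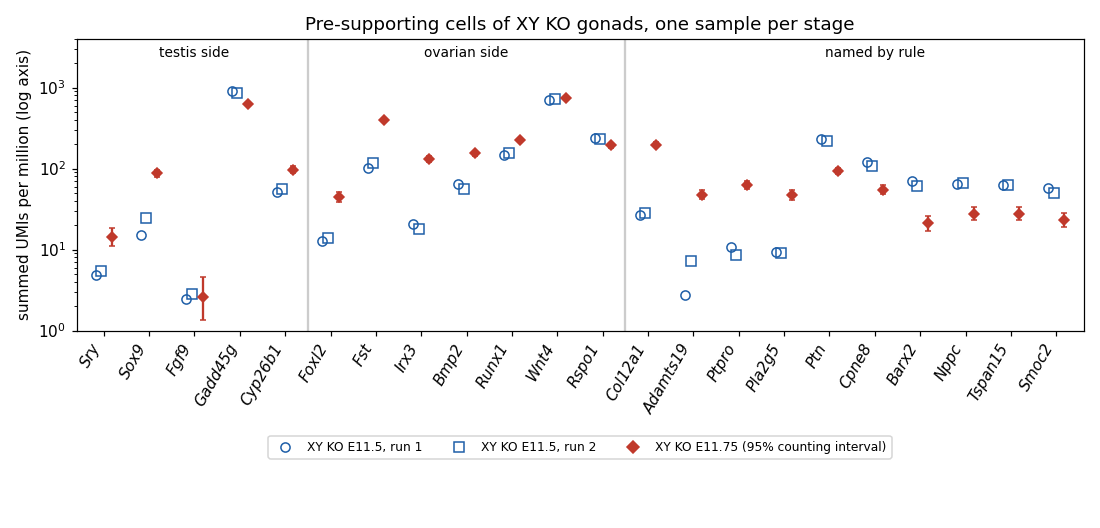
CPM (summed UMIs scaled to a common total; y axis, log scale) of genes of the testis side, of the ovarian side and named by rule in pre-supporting cells of the XY KO E11.75 sample (red diamonds, 95% counting interval) and of run 1 and run 2 of the XY KO E11.5 sample (open blue circles and squares). Sry, Sox9, Foxl2, Fst and Irx3 lie above both runs at E11.75, while Fgf9 overlaps them and Gadd45g and Rspo1 lie below.

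Genes were named in each type by a rule: the 4 of greatest excess in each direction among those past both limits with at least 200 UMIs, and the 2 most extreme in each direction with no excess. In pre-supporting cells Irx3, Col12a1 and Adamts19 had the greatest excess. Col12a1, a fibril-associated collagen, had 905 UMIs at E11.75 and 165 at E11.5 (197 against 27.4 CPM), a 5.88-fold higher level after centring, with a log2 ratio of 2.56 (2.32 to 2.81) and an excess of 3.02. Adamts19, a secreted metalloprotease, was at 47.7 CPM against 2.79 and 7.28 CPM in the runs, with a ratio of 2.91 (2.38 to 3.52) and an excess of 2.85. The 4 lowest were Smoc2 (23.3 against 53.2 CPM, ratio −1.48, excess −2.27), Ptn (93.7 against 225 CPM, −1.55 and −2.10), Cpne8 (54.7 against 113 CPM, −1.33 and −1.85) and Tspan15 (27.9 against 62.9 CPM, −1.46 and −1.77). Smoc2 encodes a matricellular protein, Cpne8 a calcium-dependent membrane-binding protein and Tspan15 a tetraspanin. All but Ptn kept the call against reference types of at least 50 cells. Smoc2, Cpne8 and Tspan15 were higher in the median non-gonadal type. Inha, which encodes the inhibin alpha subunit, was also lower, at 78.7 and 186 CPM with a ratio of −1.53 (−1.71 to −1.36) and an excess of −1.72. Among genes with no excess, Ptpro, a receptor phosphatase, was at 62.7 and 9.62 CPM (ratio 2.41, 2.01 to 2.85) and Pla2g5, a secreted phospholipase, at 47.1 and 9.29 CPM (2.04, 1.62 to 2.50). Barx2, a homeobox gene, was at 21.1 and 65.7 CPM (−1.92, −2.26 to −1.601) and Nppc, which encodes C-type natriuretic peptide, at 27.9 and 65.8 CPM (−1.52, −1.83 to −1.24).

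Levels in the E11.5 controls are given next as CPM, without centring or an excess. By the study's methods the XY control came from the same parental stem cell line and the XX control from bred mice. Median UMIs per pre-supporting cell were 4522 in the XY control and 17498.5 in the XX control, against 4661 in XY KO E11.75. The part of origin and library in these levels was not tested. In pre-supporting cells Irx3 was at 18.4 CPM in the XY control and 21.7 CPM in the XX control, close to the 19.07 CPM of XY KO E11.5 and below the 132 CPM of XY KO E11.75. Adamts19 was at 1.40 and 0.590 CPM in the controls, below both KO samples. Sox9 at E11.75 lay between the controls, which were at 200 CPM (XY) and 9.29 CPM (XX). Fst at E11.75 was above both, at 117 and 237 CPM. Comparisons of XY KO E11.75 with the controls are across stages, and all comparisons here rest on 1 sample a group.

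Supporting-like cells, a Pax8-expressing lineage next to the gonad that also gives supporting cells, had the highest share of changed genes after centring. The 4 highest by the rule were Il6st, Fst, Itga6 and Runx1. Il6st, the shared receptor subunit of the interleukin 6 family, was at 247 CPM at E11.75 and at 26.1 and 25.7 CPM in the runs of E11.5, with a ratio of 3.07 (2.65 to 3.53) and an excess of 2.25. Fst was at 203 CPM against 30.9 and 29.95 CPM (ratio 2.56, 2.14 to 3.001, excess 2.20). Itga6, a laminin receptor subunit, was at 434 and 97.1 CPM with an excess of 1.42, and Runx1 at 154 and 51.3 CPM with an excess of 1.41. Foxl2 had 52 and 25 UMIs and a ratio of 2.42 (1.72 to 3.19), and Sox9 had 73 and 72 UMIs, a ratio of 1.40 (0.91 to 1.89) and an excess of 1.20. As in pre-supporting cells, genes of both sides were higher while Wnt4 (1627 and 1880 CPM) and Rspo1 (121 and 149 CPM) were at −0.38 (−0.48 to −0.29) and −0.47 (−0.82 to −0.13). Of the ovarian list 5 of 15 genes were higher by the centred ratio (Fst, Runx1, Kitl, Cdkn1b and Cdkn1a) and 3 by both measures (Fst, Runx1 and Cdkn1b), with none lower. The background was 2.74% and 0.628%. Of the testis list 2 of 10 were higher by either rule, Sox9 and the FGF receptor gene Fgfr2 (141 and 32.2 CPM, excess 1.29).

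The 4 lowest by the rule in supporting-like cells encode matrix or signalling proteins that act outside the cell or at its surface. Sdk2, Gpc6 and Kdelr3, which the rule did not name, had excesses of −1.756, −1.605 and −1.519. Whether the lower genes as a set share this trait was not tested. Ecm1, a matrix protein, had 28 and 238 UMIs (37.4 and 108 CPM), with a ratio of −1.68 (−2.33 to −1.14) and an excess of −2.55. Slit3, a guidance ligand, was at 45.4 and 81.7 CPM with a ratio of −1.01 (−1.596 to −0.49) and an excess of −1.48. Dlk1, an imprinted non-canonical Notch ligand of progenitors, was at 571 CPM against 1391 and 1483 CPM in the runs, with a ratio of −1.51 (−1.66 to −1.36) and an excess of −1.48. Sfrp1, a secreted WNT antagonist, was at 128 and 278 CPM with a ratio of −1.28 (−1.62 to −0.98) and an excess of −1.44. Trank1, with no excess, was at 125 and 48.5 CPM (ratio 1.20, 0.78 to 1.61), and Nr0b1, which encodes the nuclear receptor DAX1, at 92.1 and 78.0 CPM (0.071, −0.36 to 0.48). Immediate early genes stood out here. Egr1 was at 219 and 12.7 CPM (ratio 3.91, 3.35 to 4.57), Fosb at 171 and 16.3 CPM (3.20, 2.67 to 3.79) and Fos at 120 and 13.2 CPM (2.999, 2.40 to 3.67), with excesses of 2.96, 3.18 and 3.11. Of the 16 genes of the immediate early and stress list, 4 were higher by both measures, beside 0.628% of all genes, and 1 (Rbm3) was past 2-fold lower by the centred ratio. Such genes are known to respond within a short time to many stimuli, the handling of tissue included. The adrenal steroidogenic markers summed to 9.34 CPM at E11.75 and 39.0 CPM at E11.5, from 7 and 86 UMIs, and the Sertoli markers to 179 and 64.4 CPM. Sox9, a member of the Sertoli list, was at 97.4 CPM at E11.75 and at 29.0 and 35.9 CPM in the runs of E11.5. The part of these marker sums in the genes named was not tested.

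In coelomic epithelium, the surface layer from which pre-supporting cells and interstitial progenitors arise, Irx3 had the greatest excess among genes read. It was at 27.9 and 5.51 CPM, with a ratio of 2.06 (1.5999 to 2.56) and an excess of 2.60, from 122 and 55 UMIs. Below the 200 UMIs of the rule, it is given for its role in the ovarian list. By the rule the highest were Adamts19 (42.3 and 15.03 CPM, ratio 1.22, 0.91 to 1.54, excess 1.17), Egr1 (42.0 and 8.42 CPM, 2.05, 1.67 to 2.44, excess 1.10, or 0.76 against types of at least 50 cells) and Hs3st3a1 (30.4 and 9.62 CPM, 1.39, 1.002 to 1.79, excess 1.09), which encodes a heparan sulfate sulfotransferase. Adamts19 was thus higher in both coelomic epithelium and pre-supporting cells. Sox9 was not: it was at 16.7 and 19.4 CPM, with a ratio of −0.48 (−0.90 to −0.094). The lowest were Ptn (400 and 768 CPM, ratio −1.21, −1.29 to −1.13, inside the range of −1.52 to 1.19 over non-gonadal types, excess −1.76, or −0.58 against types of at least 50 cells), Ackr3 (5.03 and 26.6 CPM, −2.64, −3.37 to −2.04, excess −1.72), Hoxb2 (7.08 and 22.4 CPM, −1.91, −2.52 to −1.39, excess −1.51) and Hoxa4 (5.25 and 20.7 CPM, −2.22, −2.94 to −1.62, excess −1.49). Ackr3 is a scavenging chemokine receptor, and the Hox genes set position along the body axis. With no excess, Thsd7b and Pappa2 had ratios of 0.90 (0.57 to 1.24) and 0.90 (0.50 to 1.29). Gm2694 had 18 and 407 UMIs, 11.6-fold lower after centring (ratio −3.54, −4.35 to −2.90), and Crct1 24 and 207 UMIs (−2.16, −2.86 to −1.57). Of the 17 genes read from the coelomic epithelium list 0 were past 2-fold in either direction by the centred ratio, which at 0.903% higher and 1.53% lower over all genes does not set the list apart. Upk3b, a marker of this surface layer, was at 273 and 198 CPM with a ratio of 0.20 (0.090 to 0.30).

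The Hox genes of coelomic epithelium are given by their place in the cluster, a grouping made after the values were seen and not tested. The ranges of the groups overlap. Among the 10 genes read with paralogue numbers 1 to 5 the median centred ratio was −0.54 (range −2.22 to 1.02), among the 10 with numbers 6 to 9 it was 0.22 (−1.08 to 0.44), and among the 4 with numbers 10 to 13 it was 1.04 (0.44 to 1.497). In interstitial progenitors the same split gave medians of 0.045 (7 genes), 0.086 (8 genes) and 0.26 (2 genes). In pre-supporting cells it gave −0.38 (4 genes) and −0.36 (7 genes), with no genes read of the last group. In supporting-like cells the medians of −0.97 and −0.88 rest on only 2 and 3 genes. The last group also moved in non-gonadal types: Hoxd11 was at 27.6 and 8.12 CPM, a ratio of 1.497 (1.08 to 1.92), against 2.17 in the median non-gonadal type. Over all cells Hoxd11 was at 29.1 CPM at E11.75 and 5.90 CPM at E11.5. Other genes of tissues that border the gonad differed between the libraries as wholes. Myog, of skeletal muscle, had 0 UMIs at E11.75 and 700 at E11.5, the latter 7.76 CPM. Tbx5, of the forelimb field, had 9 and 182 UMIs, or 0.238 and 2.02 CPM. Tagln, of smooth muscle, had 545 and 8736 UMIs, or 14.4 and 96.8 CPM. Kdm5d, a Y-linked gene, was at 0.423 and 2.55 CPM over all cells (16 and 230 UMIs), whereas the Y-linked Ddx3y was at 27.9 and 25.4 CPM. The extent of tissue taken at dissection was not recorded by stage in the sources used here, and its part in the Hox values was not tested.

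Interstitial progenitors, from which fetal Leydig cells and stroma arise, had immediate early genes among those past both limits. Egr1 was at 185 CPM at E11.75 and at 22.4 and 23.1 CPM in the runs of E11.5 (ratio 2.74, 2.45 to 3.05, excess 1.79). This ratio lies inside the range of 0.30 to 3.05 over non-gonadal types, with 1.96 in mesonephros. Junb was at 51.3 and 14.5 CPM (1.54, 1.13 to 1.97, excess 1.53). Cacna1g, a T-type calcium channel gene, was at 67.3 and 25.1 CPM, with a ratio of 1.14 (0.81 to 1.48) and an excess of 1.98, the greatest by the rule. Only 3 non-gonadal types counted Cacna1g, and it was higher in mesonephros (0.63; 1216 and 1978 UMIs) but lower in the epithelial mesonephros (−0.87) and tubules (−0.83). Slc4a4, a bicarbonate cotransporter gene, was at 50.9 CPM against 19.99 and 8.196 CPM in the runs (1.59, 1.17 to 2.03, excess 1.34). Of 25 immediate early and stress genes 3 were higher and 1 lower by both measures, beside 0.294% and 0.118% of all genes. Notch1, the receptor, had 67 and 35 UMIs, a ratio of 1.59 (0.99 to 2.24) and an excess of 1.75. Endothelial markers summed to 76.6 and 46.5 CPM in these cells, 0.44 higher on the centred log2 scale, with all 6 detected in both samples. Emcn, which is among these markers, was itself past both limits (ratio 1.45, excess 1.46). The part of endothelial RNA in Notch1 and in the matrix genes that follow was not tested. Of 33 collagen and matrix genes 6 were higher by the centred ratio, beside 1.7% of all genes, and 1 by both measures, Lama4 (25.3 and 7.91 CPM, excess 1.30).

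The lowest by the rule in interstitial progenitors were Foxc1, Ddit4, Lmo1 and Chchd10. Foxc1, a forkhead gene of intermediate mesoderm, was at 21.6 CPM against 55.2 and 55.1 CPM in the runs, with a ratio of −1.63 (−2.07 to −1.22) and an excess of −1.47. Ddit4, which is induced by stress and low oxygen and restrains mTORC1, was at 30.9 and 63.3 CPM (−1.31, −1.68 to −0.97, excess −1.37). Lmo1, a transcription cofactor, was at 8.92 and 34.5 CPM (−2.21, excess −1.35) and Chchd10, a mitochondrial protein, at 42.4 and 118 CPM (−1.75, excess −1.30). With no excess, Fgf2 (53.9 and 21.2 CPM, ratio 1.06, 0.70 to 1.43) and Adamts2 (60.2 and 24.1 CPM, 1.04, 0.69 to 1.39) were highest, and Cbln1 (10.0 and 34.3 CPM, −2.03, −2.70 to −1.47) and Acvr1c (27.1 and 45.3 CPM, −1.01, −1.42 to −0.64) lowest. Cbln1 lies within the span of Gm2694 on the opposite strand of chromosome 8, and both were lower at E11.75. The study's methods give Cell Ranger with default settings, which keep reads in the sense of a gene. In the interstitial and steroidogenic list, 1 of 19 genes was higher and 1 lower by the centred ratio, beside 1.7% and 3.34% of all genes, and 0 passed by both. The hedgehog targets Gli1 and Ptch1 had ratios of 0.055 (−0.43 to 0.52) and 0.34 (0.074 to 0.61), below the 0.56 and 1.07 of the median non-gonadal type.

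Germ cells had the fewest genes past both limits at the minimum of 100 UMIs, 5 higher and 4 lower, and were the type with the fewest cells. This rank depends on that minimum: without it 478 genes were higher and 545 lower. Dazl, an RNA-binding protein that licenses germ cells for sexual differentiation, was the only one of 13 genes read from the germline activation and meiosis list past 2-fold, and the median centred ratio of the list was 0.13. Dazl was at 620 CPM at E11.75 and at 268 and 220 CPM in the runs of E11.5, 2.25-fold higher after centring (ratio 1.17, 1.01 to 1.33). Ddx4, the germline RNA helicase, was at 97.6 and 48.4 CPM (0.84, 0.47 to 1.23). Cpeb1, which controls polyadenylation in the cytoplasm, was at 86.7 and 41.1 CPM (0.91, 0.51 to 1.32). These are too rare in non-gonadal types for an excess. Stra8, the gatekeeper of meiosis, had 8 UMIs at E11.75 and 0 at E11.5, too few for a ratio here. Of the 25 pluripotency genes read 0 were past 2-fold in either direction by the centred ratio, which at 0.531% higher and 0.649% lower over all genes does not set the list apart. Pou5f1 was at 277 and 245 CPM (0.0071, −0.18 to 0.20) and Nanog at 57.8 and 58.2 CPM (−0.17, −0.59 to 0.23). The excess of Pou5f1 was −1.55 only because of ratios in 3 non-gonadal types where it was at most at 5.37 CPM. Lefty2, an antagonist of Nodal that is not in that list, was lower at 43.0 and 78.7 CPM (−1.03, −1.47 to −0.62). Kit was at 206 and 130 CPM (0.50, 0.26 to 0.74), with an excess of 0.12. BC048679 was at 143 and 216 CPM (−0.76, −0.999 to −0.52).

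Id1, a target of BMP signalling, was the gene with the greatest excess in germ cells. It was at 186 CPM against 67.0 and 85.0 CPM in the runs (ratio 1.14, 0.85 to 1.43, excess 1.49), and it was the only one of 11 BMP and TGF-beta genes read there that passed, beside 0.1% of all genes. Its relatives Id2 and Id3 had excesses of 0.51 and 0.50. The lowest by the rule were Ptn and Gng12, a G protein subunit gene. Ptn was at 32.7 CPM against 52.5 and 96.7 CPM in the runs (ratio −1.31, −1.81 to −0.85, excess −1.86). Its excess was −0.68 against types of at least 50 cells. Gng12 was at 40.4 and 95.3 CPM (−1.40, −1.84 to −0.99, excess −1.44). Ptn was also at 400 and 768 CPM in coelomic epithelium, and the part of free RNA in its level in germ cells was not tested. Mesonephric tubule markers summed to 438 and 510 CPM in germ cells, of which Epcam gave 252 and 398 CPM. In the other 4 gonadal types they summed to at most 51.7 CPM. Whether the sum in germ cells reflects RNA of tubules was not tested. Of 49 genes of G2 and M phase with an excess in germ cells, 40 lay above 0, with a median of 0.35 beside 0.074 over all genes, and none passed by both measures. Their median centred ratio was 0.20, and the excess in germ cells carries the length trend given above. In coelomic epithelium 42 of 51 lay above 0, with a median excess of 0.11 beside −0.079 but a median centred ratio of −0.035. In pre-supporting cells 6 of 35 lay above 0, with a median excess of −0.20 beside −0.070 and a median centred ratio of −0.20. By the centred ratio 6 of 35 were past 2-fold lower in pre-supporting cells, 6 of 33 in interstitial progenitors and 4 of 17 in supporting-like cells, beside 2.64%, 3.34% and 3.53% of all genes.

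**Figure D4:**
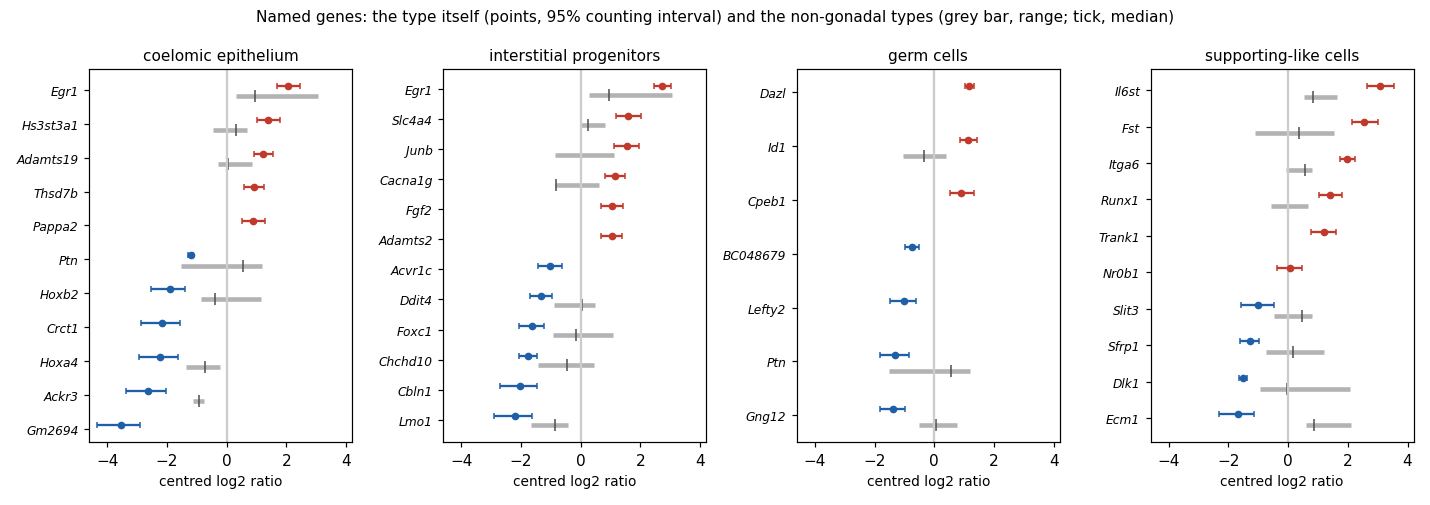
Centred log2 ratio of E11.75 over E11.5 (x axis) for the genes named by rule in all types but pre-supporting cells (points with 95% counting intervals, red above 0 and blue below), and the range and median of the same gene over the non-gonadal types (grey bar and tick; absent where the gene has no excess). Il6st in supporting-like cells, at 3.07, lies above its grey bar, whereas Egr1 in coelomic epithelium, at 2.05, lies inside it.

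The glycolysis and low oxygen list had a negative median centred ratio in all 5 types, though not every member was lower by 2-fold. This median was −0.96 (pre-supporting), −0.81 (coelomic), −1.07 (interstitial), −0.49 (germ) and −0.90 (supporting-like). By the centred ratio 13 of 28 were past 2-fold lower in pre-supporting cells, 10 of 28 in coelomic epithelium, 15 of 26 in interstitial progenitors, 4 of 22 in germ cells and 8 of 20 in supporting-like cells, and none was past 2-fold higher. The shares over all genes read were 2.64%, 1.53%, 3.34%, 0.649% and 3.53%. Gapdh was at 690 and 1608 CPM in pre-supporting cells (ratio −1.51) and at 632 and 1032 CPM in germ cells (−0.87), and Pgk1 at 343 and 734 CPM in pre-supporting cells (−1.39). Ldhb, a subunit gene of lactate dehydrogenase, stood at 1554 and 2018 CPM in pre-supporting cells (−0.67, −0.71 to −0.62). Gapdh was lower in the non-gonadal types as well, by 1.22 in the median type. The median excess of the list was −0.48, −0.38, −0.54, −0.073 and −0.42 in the order above, and 2, 0, 1, 0 and 2 genes passed by both measures, beside 0.398%, 0.184%, 0.118%, 0.08% and 0.569% of all genes. In pre-supporting cells these were Slc16a3, a lactate exporter (50.6 and 115 CPM, excess −1.08), and Bnip3, a mitophagy receptor (25.3 and 60.7 CPM, excess −1.05), both induced by low oxygen. Against types of at least 50 cells the excess of Slc16a3 was −0.57 in pre-supporting cells and −0.89 in supporting-like cells, and it missed the limit in both. The part of the trends with transcript features in these values was not tested.

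The excess of a list depends on both of its terms. The coelomic epithelium list had a median excess of −0.77 in pre-supporting cells and −0.48 in coelomic epithelium, but its median centred ratios were −0.078 and 0.17, and members such as Nr5a1 and Wt1 were higher in the median non-gonadal type by 1.25 and 1.04. Wt1, needed to form the gonad, was at 751 and 498 CPM in pre-supporting cells (ratio 0.30, 0.23 to 0.37), and Nr5a1, the nuclear receptor of steroidogenic cells, at 217 and 140 CPM (0.34, 0.21 to 0.47). Retinoic acid genes were lower by the centred ratio for 3 of 11, 2 of 13, 2 of 10, 2 of 3 and 3 of 7 genes in the order of types above, beside 2.64%, 1.53%, 3.34%, 0.649% and 3.53% of all genes, and 1 was higher in pre-supporting cells. By both measures 0, 0, 0, 0 and 2 passed, the last being Rxrb and Crabp1 in supporting-like cells, beside 0.569% of all genes; Crabp1 missed the limit (−0.78) against types of at least 50 cells. Cyp26b1, which degrades retinoic acid and keeps germ cells out of meiosis in the testis, was at 97.2 and 53.9 CPM in pre-supporting cells (0.56, 0.35 to 0.77, excess 0.14), and Aldh1a2, which makes it, at 180 and 151 CPM in coelomic epithelium (−0.014, −0.14 to 0.11). Cdkn1c, an imprinted inhibitor of the cell cycle, was level in pre-supporting cells (1773 and 1429 CPM, ratio 0.022) and lower in coelomic epithelium (411 and 706 CPM, −1.05), close to the −0.90 of the non-gonadal types.

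**Figure D5:**
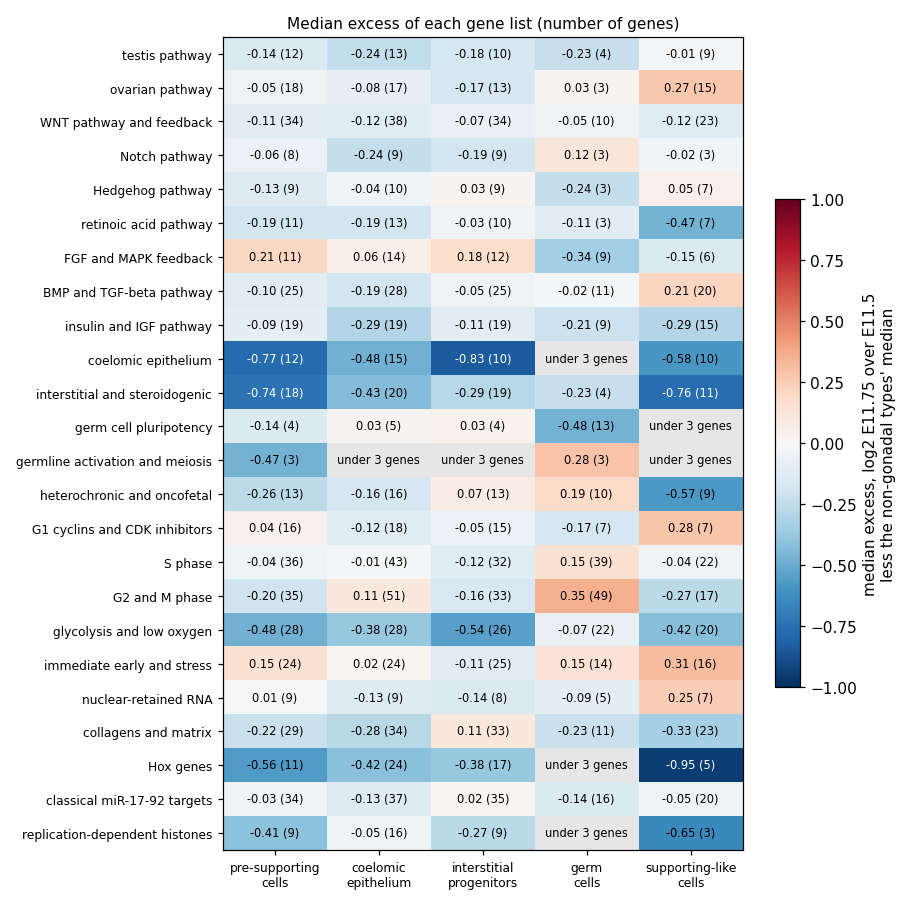
Median excess (log2, colour and printed value) of 24 gene lists (rows) in 5 gonadal cell types (columns), with the number of genes that have an excess in brackets; grey fields hold under 3 genes. Glycolysis and low oxygen is negative in all 5 types (−0.54 to −0.073), G2 and M phase is highest in germ cells (0.35), and the list of classical miR-17-92 targets lies between −0.14 and 0.016.

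Genes that the 6 deleted miRNAs could pair with were read last. Both samples lack the cluster, so this compares stages within the KO and not KO with control. A site was counted where the longest annotated 3′ UTR held the letters GCACTTT (miR-17 and miR-20a), GCACCTT (miR-18a), TTTGCAC (miR-19a and miR-19b) or GTGCAAT (miR-92a), the complements of the seeds printed above. In the sense strand alone, 34.5% to 37.5% of the genes read held a site of any family. Genes with a site had a median centred ratio of 0.11 to 0.20 over the 5 types and those without −0.13 to −0.06, but their median 3′ UTRs were 2389 to 2477.5 and 895.5 to 1000.5 bases long. On the excess the medians were −0.085 to 0.014 with a site and −0.10 to 0.10 without. Of the genes higher by both measures in pre-supporting cells 47.8% (22 of 46) held a site, and of the lower genes 42.9% (15 of 35), beside 37.2% of genes read. In supporting-like cells these were 16 of 29 higher and 6 of 29 lower genes beside 36.6%. The other types had few such genes: 2 of 9 and 5 of 17 in coelomic epithelium, 9 of 24 and 1 of 10 in interstitial progenitors, and 2 of 5 and 1 of 4 in germ cells. The 3′ UTRs of these sets differed too, with medians of 1746 bases for higher and 1201 for lower genes in supporting-like cells, and 1947 and 842 in coelomic epithelium. Among classical targets written from general knowledge 1 of 34 passed by both measures in pre-supporting cells, beside 0.509% of all genes, namely Ccnd1, a G1 cyclin (160 and 49.4 CPM, ratio 1.40, excess 1.13), and the median excess of the list was −0.035 beside −0.070 over all genes. Hmga2, an oncofetal chromatin protein, was at 614 and 409 CPM there (0.30, 0.22 to 0.38, excess −0.38), and Lin28b at 6.97 and 9.29 CPM (−0.69, −1.38 to −0.051).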

How the data were processed

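The deposited table gives unnormalized counts of UMIs for 21495 genes in single cells, which the authors made with Cell Ranger 6.1.1 on mm10, with an exon of Sry added to the reference, and filtered in Seurat, doublets included. The 126435795 values above 0 were all whole numbers. Cell types are the annotation the authors deposited.

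Counts were summed per sample and type. Genes needed at least 100 UMIs over both samples, and 116 genes (globin, ribosomal protein, mitochondrial, and Gm42418) were left out of reading but stayed in the totals. Log2 ratios of CPM (0.5 added to each count) were centred on the median gene of the type. The excess subtracts the median over at least 3 of 7 non-gonadal types (at least 20 UMIs each). A gene was called past 2-fold by both. Named genes had at least 200 UMIs: the 4 of greatest excess in each direction, and 2 in each direction with no excess; 1 gene that the rule chose is not reported here. The 35 fixed genes and 24 gene lists are given besides; the median excess of each list is drawn in the plot of lists. With 1 sample a side no test was run; intervals are exact (Poisson, or Clopper-Pearson for shares) at 95% and, like the limit of 3 counts for a 0, cover counting error only. The members and lists were chosen with earlier results of these data known. Alternatives were TMM scaling (edgeR 4.0.16), totals without the left-out genes, other count minimums, priors and fold limits, each run of E11.5 alone, the mean over cells, deeper cells, other reference types and a fit on transcript features. The calculation was run on simulated counts in which each gene had the same shift in every type. It therefore does not test a shared part that differs between types. Transcripts and 3′ UTRs are from the GENCODE annotation of mm10, matched by symbol for 21207 genes, 17464 of them with a 3′ UTR. The miRNA sequences are from RefSeq (GRCm38.p6). Python 3.11.15, numpy 2.4.6, scipy 1.17.1, pandas 2.3.3 and R 4.3.3 were used.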

Additional observations from a re-analysis of the deposited data

How the results depend on the processing

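Counts of genes past both limits follow in the order of types in the plot of counts (pre-supporting first, then coelomic, interstitial, germ and supporting-like), with 46, 10, 25, 5 and 32 higher and 36, 18, 10, 4 and 29 lower as reported. Without a minimum of UMIs they were 211, 100, 180, 478 and 504 higher and 195, 115, 169, 545 and 491 lower. A minimum of 50 UMIs gave 75, 26, 38, 21 and 73 higher and 50, 41, 25, 17 and 73 lower, and one of 500 UMIs gave 10, 0, 3, 0 and 2 higher and 12, 2, 5, 0 and 1 lower. A limit of 1.5-fold gave 164, 60, 103, 61 and 147 higher and 194, 147, 178, 47 and 152 lower. A fit on transcript features in place of the non-gonadal types gave 103, 38, 71, 15 and 69 higher and 126, 86, 144, 22 and 93 lower. A prior count of 5 left 2 higher in germ cells and 20 higher and 17 lower in supporting-like cells. Lower genes in supporting-like cells numbered 12 against run 1 alone, 12 against run 2 alone and 18 with all other types as the reference, and lower genes in interstitial progenitors 18 with the mean of CPM over cells. The causes were not tested. TMM factors, cells of at least 3000 UMIs and reference types of at least 50 cells kept all 10 counts within 1.5 times, and no value reversed. Which genes passed moved more than their number. Of the genes reported in each count, TMM kept 70% to 100%, deeper cells 60% to 100% and types of at least 50 cells 75% to 100%. Run 1 alone kept 34.5% to 73.9% and run 2 alone 34.5% to 75%. Of the values of named and fixed genes 20 moved past their counting interval and 1240 did not: 8 with run 1 alone, 8 with run 2 alone, 2 with TMM, 1 with deeper cells and 1 with the mean over cells. Totals without the left-out genes cancel under centring and so say nothing about stability. Their 180 values are among the 1240 that did not move. With reference types of at least 50 cells, 4 values of genes named by rule missed the limit: Ptn in its 3 types and Egr1 in coelomic epithelium.

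The counts depend on the minimum of UMIs in all 5 types, and the parts of depth and of counting noise in this were not tested. With 1 sample a side, the spread between embryos and preparations is not measured, and the runs of E11.5 show technical spread alone. No paired analysis was possible because each group has 1 sample and no test was run.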

Other observations

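Several genes stood apart over all cells of the libraries, and were chosen after their values were seen. Hoxa11 was at 8.35 CPM at E11.75 and 1.19 CPM at E11.5. The Y-linked Uty was at 16.1 and 11.803 CPM and Eif2s3y at 2.56 and 3.36 CPM, and Kdm5d at 0.423 and 2.55 CPM. Myog, with 0 UMIs at E11.75, was below the 0.0793 CPM that 3 counts give there and at 7.76 CPM at E11.5.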
